A study of Mus musculus with 20 samples.

Results

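The genes described here are 51 genes of DNA replication and the cell cycle, measured in cultured progenitors from the mouse fetal liver, by RNA sequencing. They were chosen by name from general knowledge of the pathway, out of 53379 gene identifiers in the deposited tables, and were sorted into 4 classes. The choice was made with earlier results of these data known, so it was not blind to them. The S phase class held 20 genes that license, open and copy origins of replication or supply nucleotides, the G1 class held 11 cyclins, kinases and E2F factors, the mitosis class held 16 genes, and the inhibitor class held Cdkn1a, Cdkn1b, Cdkn2c and Rb1. All 51 passed the filter on low counts that left 15835 genes to be tested.

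The cells were Lin- progenitors, which lack the surface markers of mature blood lineages, infected with a retroviral vector right after isolation and cultured for 3 days. There were 5 groups of 4 libraries: cells lacking the Gata2 enhancer that lies 77 kb from the gene (called enhancer-null here) with a vector for GATA2 R307W, with a vector for GATA2 T354M, with a vector for wild-type GATA2 or with a control vector, and wild-type cells with a control vector. GATA2 is a transcription factor that maintains early blood cells and binds DNA through zinc fingers, and R307W and T354M are changes of single amino acids within them. The control-vector and wild-type GATA2 groups came from C57BL/6J embryos at E14.5, and the records of the variant groups give neither strain nor age. A retroviral promoter drives GATA2 in these cells in place of the missing enhancer, and the labels do not say what share of the cells was infected or whether replicates came from separate cultures or animals. P-values therefore measure the spread between these libraries, which may be technical.

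A cell commits to division in G1, when D-type cyclins with Cdk4 or Cdk6, and then cyclin E with Cdk2, phosphorylate the retinoblastoma protein Rb1 and so release the E2F factors that switch on S phase genes. Origins are licensed when ORC, Cdc6 and Cdt1 load the Mcm2 to Mcm7 helicase, which Cdc45 and Mcm10 help to activate. Cyclin A and cyclin B with Cdk1, the Aurora and Polo-like kinases and kinesins then carry the cell through mitosis, and the CDK inhibitors of the Cip/Kip family (Cdkn1a, which encodes p21, and Cdkn1b, which encodes p27) and the INK4 family (Cdkn2c, which encodes p18) hold the kinases back. In fetal liver, red cell precursors divide fast and take part of their differentiation through S phase, while myeloid cells leave the cycle as they mature.

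Libraries held 22330475 to 33245876 expected counts, the number of reads that the RSEM program assigns to genes, and the mitochondrial ribosomal RNA mt-Rnr2 took 17.87 to 24.64% of them. Levels below are in CPM, the count of a gene relative to the library total as scaled by the TMM method, given as mean ± SD of the 4 libraries of a group. Log2 differences are the edgeR estimate with its standard error (SE), and a gene is called at a Benjamini-Hochberg adjusted p under 0.05 in edgeR's quasi-likelihood test over all genes tested. As a check of the groups, Gata2 had 5.53, 5.24, 4.72 and 7.67 CPM in enhancer-null cells with the control vector, against 52.96, 31.51, 41.83 and 50.92 CPM in wild-type cells. With the vectors Gata2 averaged 54.8 ± 23.7 CPM for R307W, 52.0 ± 19.7 for T354M and 80.7 ± 37.3 for wild-type GATA2, a count that cannot separate the vector's RNA from that of the gene. The 9 stem and progenitor markers summed to 1267 to 1446 CPM with R307W, 1396 to 1566 with T354M, 1069 to 1333 with wild-type GATA2 and 1398 to 1499 with the control vector, against 669.7 to 816 CPM in wild-type cells, sums that like all marker sums below use the unscaled library total, and none of them was at 0 in a whole group.

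Levels between genes were compared per gene length, in TPM (transcripts scaled by gene length and library total), as the mean of the 5 group means. Pcna, the sliding clamp of DNA polymerases, was the most abundant of the 51 at 265 TPM, next to Top2a, the topoisomerase that untangles chromosomes, at 262 TPM. Cdk4 had 214 TPM, Mcm6 162 TPM and Mcm7 142 TPM. At the low end stood E2f2 with 10.7 TPM, the origin recognition gene Orc1 with 7.91 TPM, Cdkn1a with 6.82 TPM, Cdkn2c with 5.63 TPM and E2f1 with 3.64 TPM. Pcna and Top2a are among 9 members with fractional counts in some libraries, from reads shared with other genes, so their level is less certain than that of the others.

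**Figure D1:**
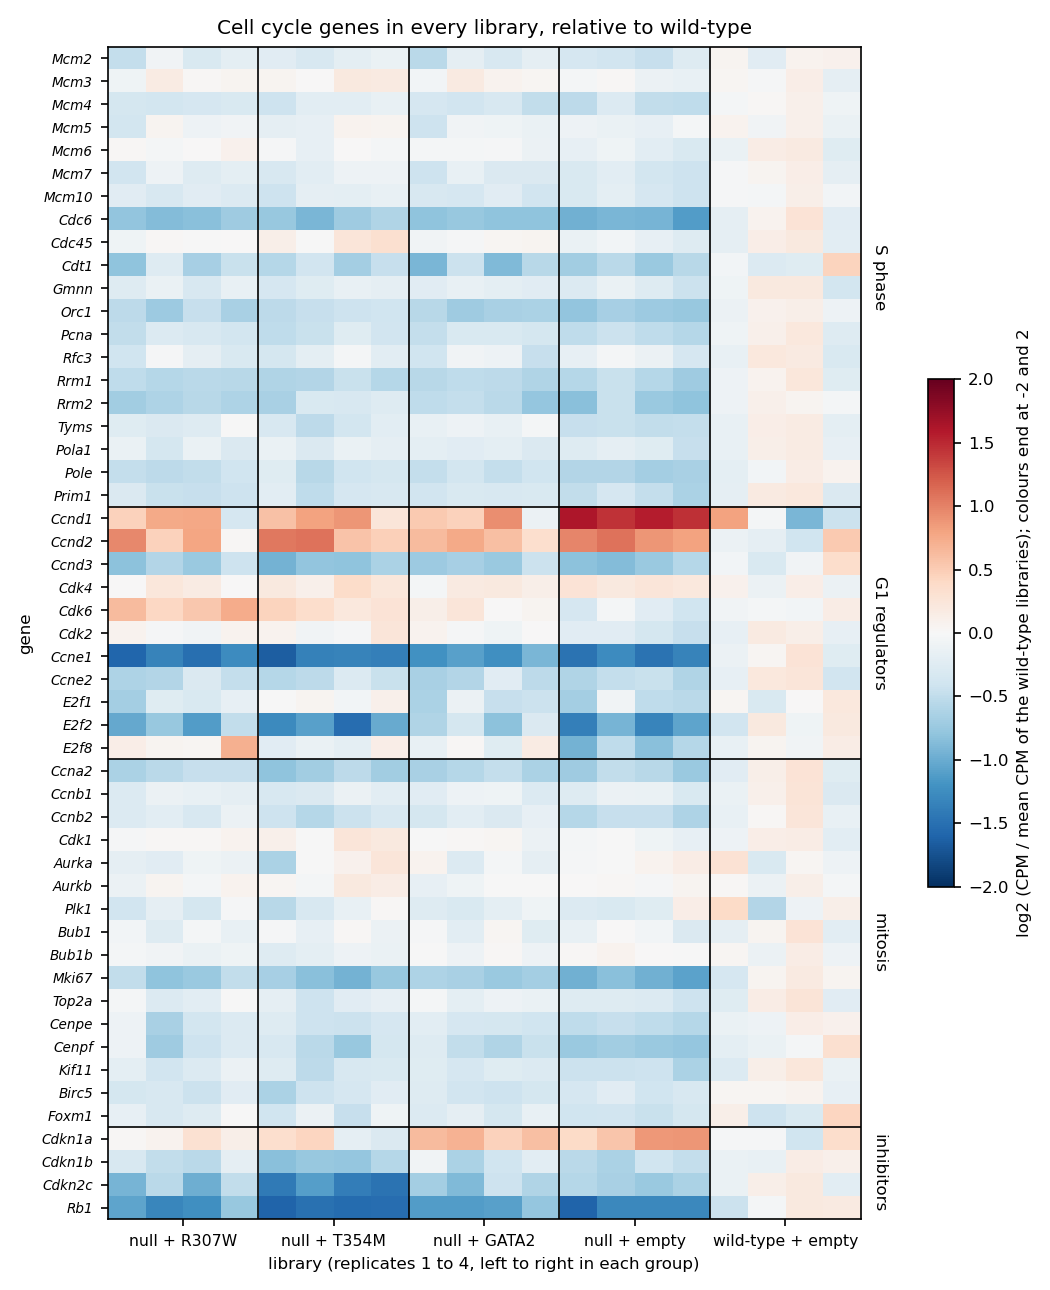
Each row is a gene and each column a library, with the groups from left to right R307W, T354M, wild-type GATA2 and the empty (control) vector in enhancer-null cells, then wild-type cells. The colour is log2 of CPM over the mean of the wild-type libraries, and most rows are below that mean in all 16 enhancer-null libraries, with Ccnd1, Ccnd2 and Cdkn1a above it in enhancer-null cells with the empty vector.

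What the missing enhancer does to these genes was asked with the control vector alone, in enhancer-null set against wild-type cells. Of the 51 genes, 35 were lower and 4 were higher in enhancer-null cells, and 12 were not called. Over all genes tested, 43.3% were called, 20.1% higher and 23.2% lower, so the share called was high throughout and the share lower was larger among the 51. The median log2 difference was -0.40 over the 51 genes and -0.051 over all genes, and 44 of the 51 estimates were negative. Most shifts were small, and the group means differed by at least 2-fold for 4 genes, Ccnd1, Ccne1, E2f2 and Rb1. The median coefficient of variation of the 51 genes was 6.48% in enhancer-null cells with the control vector and 14.1% in wild-type cells, the widest of the 5 groups.

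S phase genes were lower in enhancer-null cells for 15 of 20, none was higher, and all 20 estimates were negative, with a median of -0.40. Cdc6, the loader that places the MCM helicase on origins, had 69.5, 72.1, 71.3 and 62.5 CPM in enhancer-null cells, against 120, 142, 164 and 116 CPM in wild-type cells. The highest enhancer-null library lay well below the lowest wild-type library. Cdc6, on chromosome 11 from 98907801 to 98923940 of GRCm38, thus fell by 0.98 on the log2 scale (SE 0.09, edgeR adjusted p = 1.73e-07). Orc1, the largest subunit of the origin recognition complex, had 16.8, 18.4, 17.6 and 17.2 CPM in enhancer-null cells, against 26.8, 30.9, 31.5 and 27.2 CPM in wild-type cells, a difference of -0.73 (SE 0.08, edgeR adjusted p = 7.93e-07). Rrm2, the small subunit of ribonucleotide reductase, which makes deoxynucleotides, had 118, 155, 127 and 121 CPM, against 196, 225, 218 and 204 CPM in wild-type cells. The groups did not overlap for either gene, and the difference of Rrm2 was -0.70 (SE 0.10, edgeR adjusted p = 1.2e-05).

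The other called S phase genes spanned -0.63 for Cdt1, the second licensing factor, to -0.27 for its inhibitor Gmnn (geminin). Between them lay the polymerase genes Pole at -0.62, Prim1 at -0.48 and Pola1 at -0.28, and the clamp gene Pcna at -0.50. In nucleotide supply Rrm1 was at -0.57 and thymidylate synthase Tyms at -0.47. Of the MCM genes, Mcm4 at -0.45, Mcm2 at -0.36, Mcm7 at -0.32 and Mcm10 at -0.31 were called. Mcm6 at -0.19, Mcm5 at -0.11 and Mcm3 at -0.07, with Rfc3 at -0.16 and Cdc45 at -0.15, were not, and their libraries overlapped between the groups. In 14 of the 15 called genes all 4 enhancer-null libraries lay below all 4 wild-type libraries, the exception being Gmnn. How often called genes separate in this way over all genes tested was not counted.

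All 11 genes of the G1 class were called, 8 lower and 3 higher. Ccne1, the cyclin E1 that starts S phase with Cdk2, had 24.8, 28.8, 24.8 and 27.3 CPM in enhancer-null cells, against 63.4, 70.4, 82.9 and 58.3 CPM in wild-type cells. With no overlap between the groups, Ccne1 (chromosome 7, 38097984 to 38107534) fell by 1.38 on the log2 scale (SE 0.11, edgeR adjusted p = 2.6e-08), the largest drop of the 51. E2f2, an activating E2F factor, had 32.3, 43.5, 33.2 and 40.2 CPM in enhancer-null cells and 63.7, 95.7, 78.2 and 95.4 CPM in wild-type cells, a difference of -1.16 (SE 0.17, edgeR adjusted p = 1.57e-05). E2f8, a repressive E2F factor, Ccne2 (cyclin E2), E2f1, Cdk2 and Cdk6 were lower by smaller amounts, at -0.70, -0.53, -0.43, -0.31 and -0.24.

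The 3 D-type cyclins moved in different directions. Ccnd1 (cyclin D1, chromosome 7, 144929931 to 144939925) had 83.9, 74.7, 81.6 and 75.2 CPM in enhancer-null cells, against 47.9, 26.7, 14.51 and 20.2 CPM in wild-type cells. The enhancer-null libraries were close to each other and all above the wild-type ones, which spread over a wide range, and Ccnd1 rose by 1.53 (SE 0.30, edgeR adjusted p = 0.000402). Ccnd2 (cyclin D2) had 99.4, 107, 92.7 and 88.3 CPM in enhancer-null cells, against 46.5, 44.5, 38.2 and 72.6 CPM in wild-type cells, and rose by 0.94 (SE 0.20, edgeR adjusted p = 0.0009). Ccnd3 (cyclin D3) had 75.5, 73.0, 79.5 and 90.3 CPM in enhancer-null cells, against 128, 108, 127 and 171 CPM in wild-type cells, and was lower by 0.75 (log2 difference -0.75, SE 0.13, edgeR adjusted p = 8.36e-05). For Ccnd2 and Ccnd3, too, the groups did not overlap. The G1 kinase Cdk4 rose by 0.23 (SE 0.08, edgeR adjusted p = 0.0262), and Tspan31, whose exons on the opposite strand share 19.7% of its exon bases, was higher by 0.54, so that without known strand the reads of the pair cannot be told apart. Ccnd1 shares 23.4% of its exon bases with LTO1 on the opposite strand, but LTO1 was at 7.95 CPM in enhancer-null and 8.41 CPM in wild-type cells, a log2 difference of -0.08. Ccne2 shares 17.4% with Ints8, which was itself lower by 0.43 (log2 difference -0.43).

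Mitosis genes were lower in enhancer-null cells for 9 of 16 and none was higher, with a median of -0.31. Mki67, which encodes the proliferation marker Ki-67 that coats mitotic chromosomes, had 1134, 1246, 1139 and 1057 CPM in enhancer-null cells, against 1748, 2304, 2493 and 2303 CPM in wild-type cells. The difference was -0.95 (SE 0.11, edgeR adjusted p = 1.04e-06), with no overlap. Cenpf, a kinetochore protein, had 78.9, 81.2, 78.6 and 77.6 CPM in enhancer-null cells, a narrow range, against 115, 120, 128 and 165 CPM in wild-type cells, a difference of -0.74 (SE 0.13, edgeR adjusted p = 0.00012). Ccna2, the cyclin A2 of S phase and mitotic entry, had 234, 273, 262 and 231 CPM in enhancer-null cells and 327, 419, 466 and 326 CPM in wild-type cells, a difference of -0.62 (SE 0.10, edgeR adjusted p = 8.78e-05). Ccnb2 (cyclin B2) at -0.52, the kinesins Cenpe at -0.51 and Kif11 at -0.48, the mitotic transcription factor Foxm1 at -0.40, the survivin gene Birc5 at -0.32 and Top2a at -0.30 were lower as well.

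The kinases of mitosis and the spindle checkpoint were not called. Cdk1 was at -0.07, Plk1 at -0.16, Aurka at 0.04, Aurkb at 0.02, Bub1 at -0.12 and Bub1b at 0.03, and Ccnb1, the cyclin B1 partner of Cdk1, was at -0.20. Aurkb, the kinase of the chromosomal passenger complex, had 71.7 ± 1.65 CPM in enhancer-null cells and 71.0 ± 4.94 CPM in wild-type cells, and its libraries overlapped. Birc5, whose product sits in the same complex, was called at 62.5 ± 3.06 CPM in enhancer-null cells and 77.9 ± 5.79 CPM in wild-type cells.

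**Figure D2:**
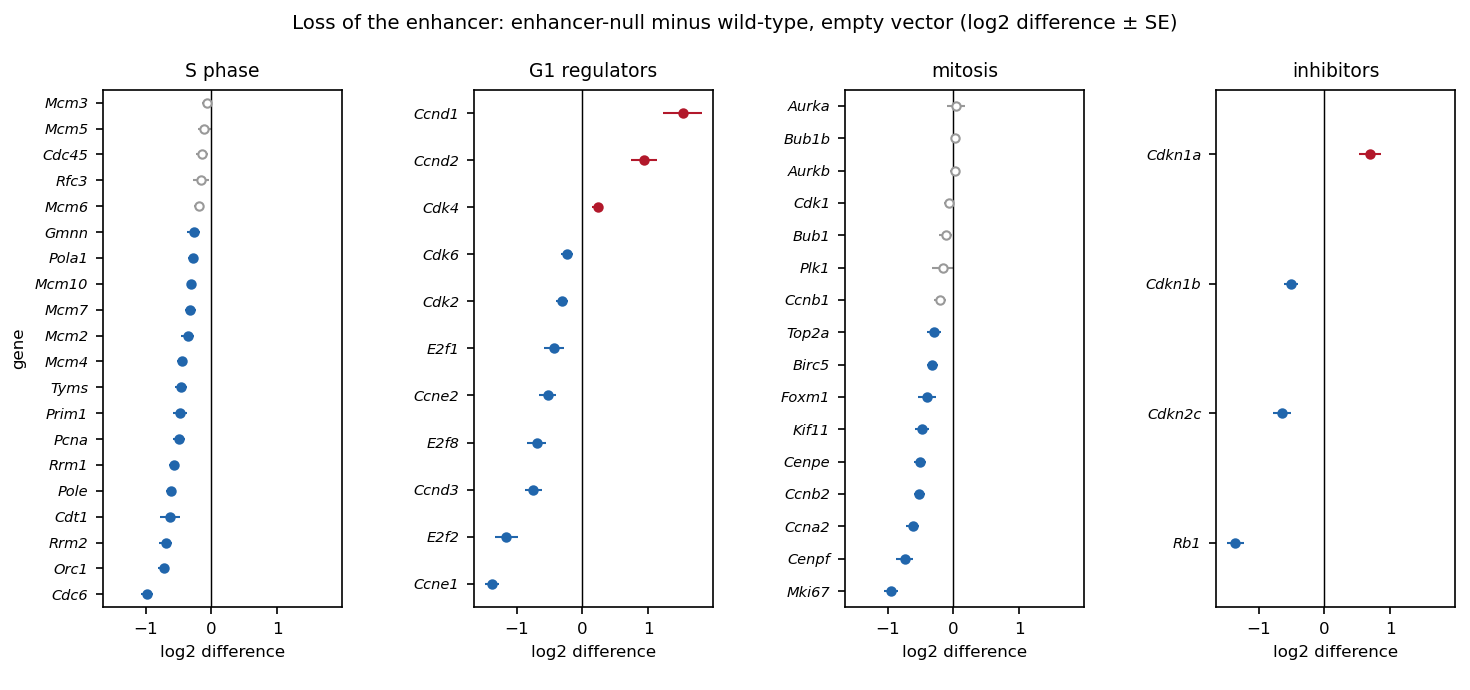
Points are log2 differences of enhancer-null minus wild-type cells, both with the empty vector, with bars of 1 SE, for each gene of the 4 classes from top to bottom. All S phase points lie left of 0, Ccnd1, Ccnd2 and Cdk4 stand alone to the right among the G1 genes, and Cdkn1a to the right among the inhibitors.

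The inhibitors split as well. Cdkn1a had 13.0, 14.53, 18.2 and 18.4 CPM in enhancer-null cells, against 9.78, 9.77, 7.56 and 12.7 CPM in wild-type cells. All 4 enhancer-null libraries lay above the wild-type ones, by a small margin, and Cdkn1a rose by 0.69 (SE 0.17, edgeR adjusted p = 0.00287). Rb1, the pocket protein that keeps E2F factors silent, had 52.4, 65.7, 65.4 and 65.0 CPM in enhancer-null cells, against 119, 156, 183 and 181 CPM in wild-type cells. Rb1 (chromosome 14, 73183673 to 73325822) fell by 1.36 on the log2 scale (SE 0.13, edgeR adjusted p = 2.21e-07). Cdkn1b fell by 0.51 (SE 0.11, edgeR adjusted p = 0.00122), to 40.7 ± 2.85 CPM in enhancer-null cells, against 58.0 ± 6.25 CPM in wild-type cells. Cdkn2c had 7.97, 7.58, 7.08 and 7.71 CPM in enhancer-null cells, against 10.8, 12.9, 13.6 and 10.3 CPM in wild-type cells, a difference of -0.65 (SE 0.14, edgeR adjusted p = 0.000804). Groups did not overlap for any of the 4 inhibitors, for which the share over all genes was not counted either. The 15 genes given here with their test for enhancer loss under the naming rule kept their call under every alternative run.

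In these bulk libraries fewer cells of a type and less RNA per cell cannot be told apart, and the makeup of the cultures moved together with these genes. The 15 erythroid markers summed to 640.1 to 1235 CPM in enhancer-null cells and 4944 to 8366 CPM in wild-type cells, and all 15 were lower. The 11 mast cell and basophil markers were all lower too, at 126 to 138 CPM in enhancer-null cells and 916 to 1086 CPM in wild-type cells, with the mast cell tryptase gene Tpsb2 at 0 in all 4 enhancer-null libraries. Among these 11 is Gata2 itself, the gene whose enhancer is missing. The 10 monocyte and macrophage markers were all higher, at 5711 to 6354 CPM in enhancer-null cells and 1306 to 2695 CPM in wild-type cells. Stem and progenitor markers were higher for 7 of 9 and lower for the other 2. The 8 eosinophil markers were all lower, at 18.7 to 26.1 CPM in enhancer-null cells and 654 to 947 CPM in wild-type cells, and dendritic cell markers were higher for 8 of 9 and lower for 1, at 280.5 to 448 CPM in enhancer-null cells and 53.04 to 61.8 CPM in wild-type cells. The 7 megakaryocyte markers were all lower, at 101 to 306.6 CPM in enhancer-null cells and 361 to 625 CPM in wild-type cells. Neutrophil markers were lower for 6 of 10, with sums of 3872 to 5171 CPM in enhancer-null cells and 8098 to 16076 CPM in wild-type cells. The part of these markers' cell types in the cell cycle result was not tested.

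The promoters of these genes were read because 15 of 20 S phase genes and 9 of 16 mitosis genes were called lower on enhancer loss and none higher. Each was taken from RefSeq (GRCm38.p6) as the 250 bases before to 50 after 1 listed start, the first where a gene had several. Some windows therefore lie away from the outer end of the gene, as for Cdkn2c, which extends to 109667189. A missing match says nothing of other starts. A window was found for 41 of the 51. Searched on both strands were an E2F element (TTGGCGC or TTCGCGC or TTCCCGC or TTGCCGC), a CHR element (TTTGAA or TTCGAA), the CCAAT box and a GATA element (AGATAA or TGATAA), where matches of the E2F and CCAAT letters can overlap. The E2F letters were in 12 of 17 S phase windows (70.6%) and 3 of 13 mitosis windows (23.1%), against 16.8% of 10702 windows of tested genes. The CHR letters were in 10 of 13 mitosis windows (76.9%) and 4 of 17 S phase windows (23.5%), against 1549 of the 10702 tested genes. A CCAAT box was in 12 of 13 mitosis windows (92.3%) and 14 of 17 S phase windows (82.4%), against 38.9%. The GATA letters were in 2 of the 41 windows (4.88%), against 10.9%. A match of letters is a description and not a shown binding site. The windows below are 2 each from the S phase and mitosis classes, 1 from the G1 class and 1 inhibitor, all called on enhancer loss except Mcm6, with every match in capitals.
Mcm6, chr1:128359656-128359955, minus strand, E2F and CCAAT letters in capitals: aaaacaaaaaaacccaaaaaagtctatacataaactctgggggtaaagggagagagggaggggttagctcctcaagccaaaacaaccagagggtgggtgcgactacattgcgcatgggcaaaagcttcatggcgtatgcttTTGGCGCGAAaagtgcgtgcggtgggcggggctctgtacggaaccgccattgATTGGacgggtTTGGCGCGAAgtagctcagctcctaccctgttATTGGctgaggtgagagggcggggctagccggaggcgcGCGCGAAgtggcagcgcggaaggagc
Orc1, chr4:108579204-108579503, plus strand, E2F and CCAAT letters in capitals: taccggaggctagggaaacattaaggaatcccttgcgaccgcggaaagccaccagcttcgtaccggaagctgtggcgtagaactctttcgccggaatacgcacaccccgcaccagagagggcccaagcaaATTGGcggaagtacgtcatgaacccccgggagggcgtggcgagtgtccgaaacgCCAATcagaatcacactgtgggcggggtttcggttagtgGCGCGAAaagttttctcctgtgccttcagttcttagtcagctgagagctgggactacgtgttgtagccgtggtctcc
Ccnb2, chr9:70421505-70421804, minus strand, CHR and CCAAT letters in capitals: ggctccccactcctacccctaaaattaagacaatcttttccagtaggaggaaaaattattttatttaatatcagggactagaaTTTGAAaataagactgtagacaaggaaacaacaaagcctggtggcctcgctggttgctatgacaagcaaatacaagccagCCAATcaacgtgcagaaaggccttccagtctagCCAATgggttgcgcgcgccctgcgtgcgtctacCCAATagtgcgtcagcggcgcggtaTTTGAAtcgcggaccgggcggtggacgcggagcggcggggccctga
Kif11, chr19:37376132-37376431, plus strand, CHR and CCAAT letters in capitals: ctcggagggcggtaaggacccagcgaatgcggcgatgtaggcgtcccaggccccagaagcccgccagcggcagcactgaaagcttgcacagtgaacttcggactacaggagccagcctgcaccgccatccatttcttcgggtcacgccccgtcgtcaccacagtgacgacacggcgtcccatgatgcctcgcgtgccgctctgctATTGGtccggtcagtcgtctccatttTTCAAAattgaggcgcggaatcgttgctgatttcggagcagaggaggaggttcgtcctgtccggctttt
E2f8, chr7:48881547-48881846, minus strand, E2F, CHR and CCAAT letters in capitals: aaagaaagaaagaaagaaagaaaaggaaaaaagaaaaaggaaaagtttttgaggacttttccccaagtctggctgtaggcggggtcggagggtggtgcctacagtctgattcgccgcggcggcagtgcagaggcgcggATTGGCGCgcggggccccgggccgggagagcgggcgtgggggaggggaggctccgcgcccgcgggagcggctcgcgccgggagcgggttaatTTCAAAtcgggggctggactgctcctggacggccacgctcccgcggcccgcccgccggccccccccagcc
Cdkn2c, chr4:109666707-109667006, minus strand, E2F letters in capitals: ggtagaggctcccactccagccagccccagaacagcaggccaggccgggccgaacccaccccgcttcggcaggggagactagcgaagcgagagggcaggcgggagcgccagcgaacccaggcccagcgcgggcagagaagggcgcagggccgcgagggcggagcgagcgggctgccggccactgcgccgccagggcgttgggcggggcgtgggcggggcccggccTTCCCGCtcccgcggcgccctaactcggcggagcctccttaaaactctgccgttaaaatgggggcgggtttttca

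Mcm6 holds 5 matches of the E2F letters, some of which overlap each other, the most of these windows, and Orc1 holds 1 match. Whether matches go with the fall of a gene on enhancer loss was not tested. Ccnb2 holds 3 CCAAT boxes and 2 CHR matches.

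The effect of GATA2 was read by setting each vector against the control vector in enhancer-null cells. These 3 comparisons share the 4 control-vector libraries. Of the 51 genes, R307W raised 7 and lowered 2, where 17.5% of all genes tested were called, 10.0% higher and 7.48% lower. T354M raised 8 and lowered 4, where 17.4% were called, 9.26% higher and 8.11% lower. Wild-type GATA2 raised 6 and lowered 1, where 19.2% were called, 11.0% higher and 8.23% lower. These shares are near the background, 17.6, 23.5 and 13.7% of the 51 genes. The counts moved when single libraries were left out. Without replicate 4 of the vector group 2 genes were called with R307W, 3 with T354M and 4 with wild-type GATA2, and without control-vector replicate 4 the counts were 3, 4 and 5. The number of all genes called also fell without replicate 4 of the vector group, to 1276 for R307W, 1401 for T354M and 1574 for wild-type GATA2, against 2773, 2751 and 3042 with all libraries. Leaving out control-vector replicate 1 or 3 gave 5 genes with R307W and 6 with T354M, R307W replicate 1 gave 5 with R307W, and T354M replicates 2 and 3 gave 8 and 5 with T354M. Of the 35 genes that were lower on enhancer loss, R307W raised 7, T354M 7 and wild-type GATA2 6, and 24, 25 and 27 of the 35 were still called lower than in wild-type cells. In all, 17 of the 51 genes were called with at least 1 of the vectors.

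Markers of other cell types moved with all 3 vectors, and their counts are given for R307W, T354M and wild-type GATA2 in turn. The 8 eosinophil markers were all higher, with sums of 1339 to 3250 CPM with R307W, 1075 to 5696 with T354M and 1843 to 3274 with wild-type GATA2, against 18.7 to 26.1 CPM with the control vector. Mast cell and basophil markers were higher for 8, 8 and 10 of 11, with sums of 714 to 1425, 577 to 1714 and 1600.03 to 5106 CPM, against 126 to 138 CPM with the control vector. These 11 include Gata2, which the vectors themselves express. Monocyte and macrophage markers were lower for 7, 7 and 9 of 10, with sums of 1175 to 3781, 1336 to 4591 and 1174 to 3715 CPM, against 5711 to 6354 CPM with the control vector. Dendritic cell markers were lower for 8, 9 and 8 of 9, and 1 was higher with wild-type GATA2. Of 15 erythroid markers 8, 2 and 8 were higher and 2, 9 and 2 lower, and of 10 neutrophil markers 2, 4 and 1 were higher and 3, 0 and 6 lower. Of 9 stem and progenitor markers 1, 2 and 1 were higher and 3, 3 and 2 lower, and of 7 megakaryocyte markers 0, 0 and 1 were higher and 3, 3 and 0 lower. The part of these cell types in the results of the vectors was not tested.

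The G1 class held the genes called with all 3 vectors, which were E2f8, Cdk6, Cdk2 and Ccnd1. E2f8, the repressive E2F factor, had 80.9, 76.5, 75.8 and 121 CPM with R307W, 63.1, 66.9, 64.3 and 81.0 CPM with T354M and 66.5, 74.8, 62.3 and 82.3 CPM with wild-type GATA2, against 38.4, 51.4, 41.2 and 49.4 CPM with the control vector. Every vector library lay above every control library, and the highest was R307W replicate 4. The log2 difference was 0.97 for R307W (SE 0.14, edgeR adjusted p = 0.000144), 0.61 for T354M (SE 0.14, edgeR adjusted p = 0.00696) and 0.66 for wild-type GATA2 (SE 0.14, edgeR adjusted p = 0.00348), and these calls held under every alternative run. In wild-type cells E2f8 had 73.5 ± 6.87 CPM, and none of the 3 vector groups was called against them.

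Cdk6, the G1 kinase that partners D-type cyclins in blood cells, had 514, 440, 479 and 555 CPM with R307W, 451, 421, 385 and 400 CPM with T354M and 358, 393, 334 and 343 CPM with wild-type GATA2, against 263, 322, 282 and 252 CPM with the control vector. No vector library overlapped with the control libraries. The log2 difference was 0.83 for R307W (SE 0.09, edgeR adjusted p = 6.11e-06), 0.57 for T354M (SE 0.09, edgeR adjusted p = 0.000282) and 0.35 for wild-type GATA2 (SE 0.09, edgeR adjusted p = 0.0108), of which the last was not called by limma on TPM (adjusted p = 0.193). Cdk6 also stood above wild-type cells, at 331 ± 23.8 CPM, with R307W by 0.59 (edgeR adjusted p = 5.59e-05) and with T354M by 0.32 (edgeR adjusted p = 0.00813), and not with wild-type GATA2 (0.11, edgeR adjusted p = 0.387). Cdk2 was raised by all 3 vectors, by 0.32 with R307W, 0.37 with T354M and 0.31 with wild-type GATA2. Without replicate 4 of the vector group its adjusted p was 0.0607, 0.0536 and 0.0585 in the same order, in edgeR. Without control-vector replicate 4 it was 0.0633 for R307W and 0.072 for wild-type GATA2, whose Cdk2 call was also lost without control-vector replicate 3 (0.0532) or its own replicate 1 (0.0619).

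E2f2 had 58.8 ± 9.5 CPM with wild-type GATA2, against 37.3 ± 5.43 CPM with the control vector, and rose by 0.66 (SE 0.16, edgeR adjusted p = 0.00918) with no overlap, a call that held under every alternative run. With R307W E2f2 had 47.0 ± 9.28 CPM and with T354M 36.1 ± 5.53 CPM, log2 differences of 0.33 and -0.05 that were not called. E2f1 was called higher with T354M, by 0.46 (edgeR adjusted p = 0.0402), and lost that call on leaving out any T354M library or replicate 1, 3 or 4 of the control-vector group, with an adjusted p of up to 0.126, and on leaving out some libraries of other groups.

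Ccnd1 fell with each vector, opposite to its rise on enhancer loss. It had 37.6, 46.3, 46.7 and 21.6 CPM with R307W, 40.9, 47.6, 50.4 and 32.2 CPM with T354M and 39.4, 37.4, 52.2 and 25.2 CPM with wild-type GATA2, against 83.9, 74.7, 81.6 and 75.2 CPM with the control vector. All 12 vector libraries lay below all 4 control libraries, and replicate 4 was the lowest in each vector group. The log2 difference was -1.05 for R307W (SE 0.30, edgeR adjusted p = 0.0201), -0.88 for T354M (SE 0.29, edgeR adjusted p = 0.046) and -1.03 for wild-type GATA2 (SE 0.30, edgeR adjusted p = 0.0205). Without replicate 4 of the vector group the differences were -0.86 (edgeR adjusted p = 0.0814), -0.78 (0.14) and -0.87 (0.0841), so that these calls were lost with that library left out and fewer libraries tested. For T354M the call was also lost without any other T354M library or any control-vector library, with an adjusted p of up to 0.103, and without some libraries of other groups. Ccnd2 was at -0.34 with R307W, -0.12 with T354M and -0.35 with wild-type GATA2, and Ccnd3 at 0.12, -0.04 and 0.11, none of them called. With the replicate number as a block Ccnd2 was called lower with wild-type GATA2 (-0.37, edgeR adjusted p = 0.0323). That block also called Ccnd2 lower with R307W (edgeR adjusted p = 0.0261), whose libraries were not taken as paired with the control ones.

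**Figure D3:**
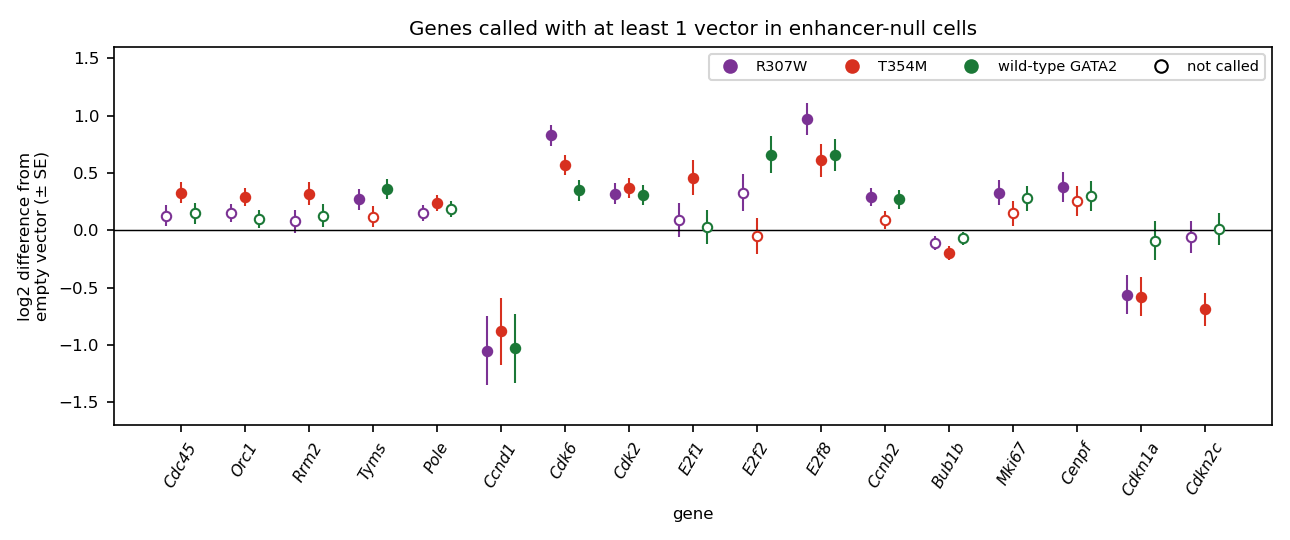
Points are log2 differences of R307W, T354M and wild-type GATA2, from left to right for each gene, minus the empty vector in enhancer-null cells, with bars of 1 SE, for the 17 genes called with at least 1 vector. Filled points are called and open points are not, and Ccnd1 lies below 0 and Cdk6 and E2f8 above 0 with all 3.

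S phase genes gave few calls with the vectors, 1 of 20 with R307W, 4 with T354M and 1 with wild-type GATA2, all higher, although 18, 19 and 16 of the 20 estimates were positive. Their medians were 0.10, 0.14 and 0.08, against 0.018, 0.019 and 0.001 over all genes. Tyms had 91.8, 94.9, 92.5 and 99.7 CPM with wild-type GATA2, against 74.5, 74.6, 72.8 and 73.1 CPM with the control vector, tight groups that did not overlap. Tyms rose by 0.36 with wild-type GATA2 (SE 0.09, edgeR adjusted p = 0.00758) and kept that call under every alternative run. It also rose with R307W by 0.27 (SE 0.09, edgeR adjusted p = 0.0397), but that call was lost in 12 of the alternatives that leave out libraries, with an adjusted p of up to 0.175. With T354M Cdc45, a helicase activator, rose by 0.33 (edgeR adjusted p = 0.0178), Rrm2 by 0.32 (0.028), Orc1 by 0.29 (0.0181) and Pole by 0.24 (0.0337). Each of the 4 calls was lost without replicate 3 or 4 of T354M or replicate 4 of the control-vector group, and the adjusted p reached 0.131 for Cdc45, 0.174 for Rrm2, 0.168 for Orc1 and 0.162 for Pole over all alternatives. Orc1 had 21.4 ± 0.87 CPM with T354M, against 17.5 ± 0.71 CPM with the control vector and 29.1 ± 2.44 CPM in wild-type cells.

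Mitosis genes were called for 3 of 16 with R307W, 1 with T354M and 1 with wild-type GATA2. Ccnb2 was raised by R307W to 107 ± 6.5 CPM and by wild-type GATA2 to 106 ± 5.83 CPM, against 87.8 ± 4.79 CPM with the control vector. The log2 differences were 0.29 (SE 0.08, edgeR adjusted p = 0.0229) and 0.27 (SE 0.08, edgeR adjusted p = 0.0312), and without replicate 4 of the vector group they were 0.25 and 0.24, with adjusted p-values of 0.0945 and 0.11. The Ccnb2 calls were also lost without replicate 2 of the vector group (0.0525 and 0.0778) or replicate 1 (0.061 and 0.0787) or 4 (0.0743 and 0.0942) of the control-vector group. With R307W Mki67 rose by 0.33 (SE 0.11, edgeR adjusted p = 0.0399) to 1435 ± 168 CPM, against 1144 ± 77.6 CPM with the control vector. Cenpf rose by 0.38 (SE 0.13, edgeR adjusted p = 0.0466) to 103 ± 17.8 CPM with R307W, against 79.0 ± 1.53 CPM with the control vector, and its libraries overlapped. Both calls were lost in 11 or more of the alternatives that leave out libraries, with adjusted p-values of up to 0.28 for Mki67 and 0.156 for Cenpf. Bub1b, a spindle checkpoint kinase that was not called on enhancer loss, fell with T354M by 0.20 (log2 difference -0.20, SE 0.06, edgeR adjusted p = 0.0377) to 142 ± 6.52 CPM, against 163 ± 3.90 CPM with the control vector, and lost the call in 8 such alternatives, with an adjusted p of up to 0.299 over all.

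Among the inhibitors, Cdkn2c had 4.47, 5.52, 4.58 and 4.28 CPM with T354M, against 7.97, 7.58, 7.08 and 7.71 CPM with the control vector, although it was already lower than in wild-type cells. The groups did not overlap, and Cdkn2c fell with T354M by 0.69 (log2 difference -0.69, SE 0.14, edgeR adjusted p = 0.00238), a call that held under every alternative run. With R307W it was at -0.06 and with wild-type GATA2 at 0.01. Cdkn1a had 10.1, 10.4, 12.2 and 10.8 CPM with R307W and 12.5, 13.4, 8.76 and 8.15 CPM with T354M, against 13.0, 14.53, 18.2 and 18.4 CPM with the control vector. R307W libraries lay below the control ones and T354M libraries overlapped with them, with log2 differences of -0.56 (SE 0.17, edgeR adjusted p = 0.0292) and -0.58 (SE 0.17, edgeR adjusted p = 0.0239). Without replicate 4 of the vector group these were -0.55 (edgeR adjusted p = 0.0816) and -0.48 (0.0891). The Cdkn1a calls were also lost without control-vector replicate 3 (adjusted p of 0.0855 for R307W and 0.0726 for T354M) or replicate 4 (0.0914 and 0.081), without R307W replicate 1 (0.0745) or 2 (0.051), and without T354M replicate 3 (0.0645). Limma on TPM called Cdkn1a with neither variant, and over all alternatives the adjusted p reached 0.106 for R307W and 0.169 for T354M. With wild-type GATA2 Cdkn1a had 15.0 ± 0.97 CPM, a log2 difference of -0.09 (SE 0.17, edgeR adjusted p = 0.778).

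Rb1 was at 0.29 with R307W, -0.18 with T354M and 0.35 with wild-type GATA2, and none was called. All 4 wild-type GATA2 libraries were above the control ones for Rb1 (edgeR adjusted p = 0.0757), and it was called with the replicate number as a block (0.33, edgeR adjusted p = 0.016). Cdkn1b was at 0.13, -0.22 and 0.20 in the same order, without a call. With the block Rb1 was also called higher with R307W (edgeR adjusted p = 0.0478) and Cdkn1b lower with T354M (0.048). The libraries of neither variant were taken as paired with the control ones outside the block. That block, which uses the pairing of libraries by number, raised the number of the 51 genes called with wild-type GATA2 to 12 higher and 2 lower. The genes it added were Pole, Ccne1, Mki67, Cenpf, Kif11 and Rb1 as higher and Ccnd2 as lower.

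**Figure D4:**
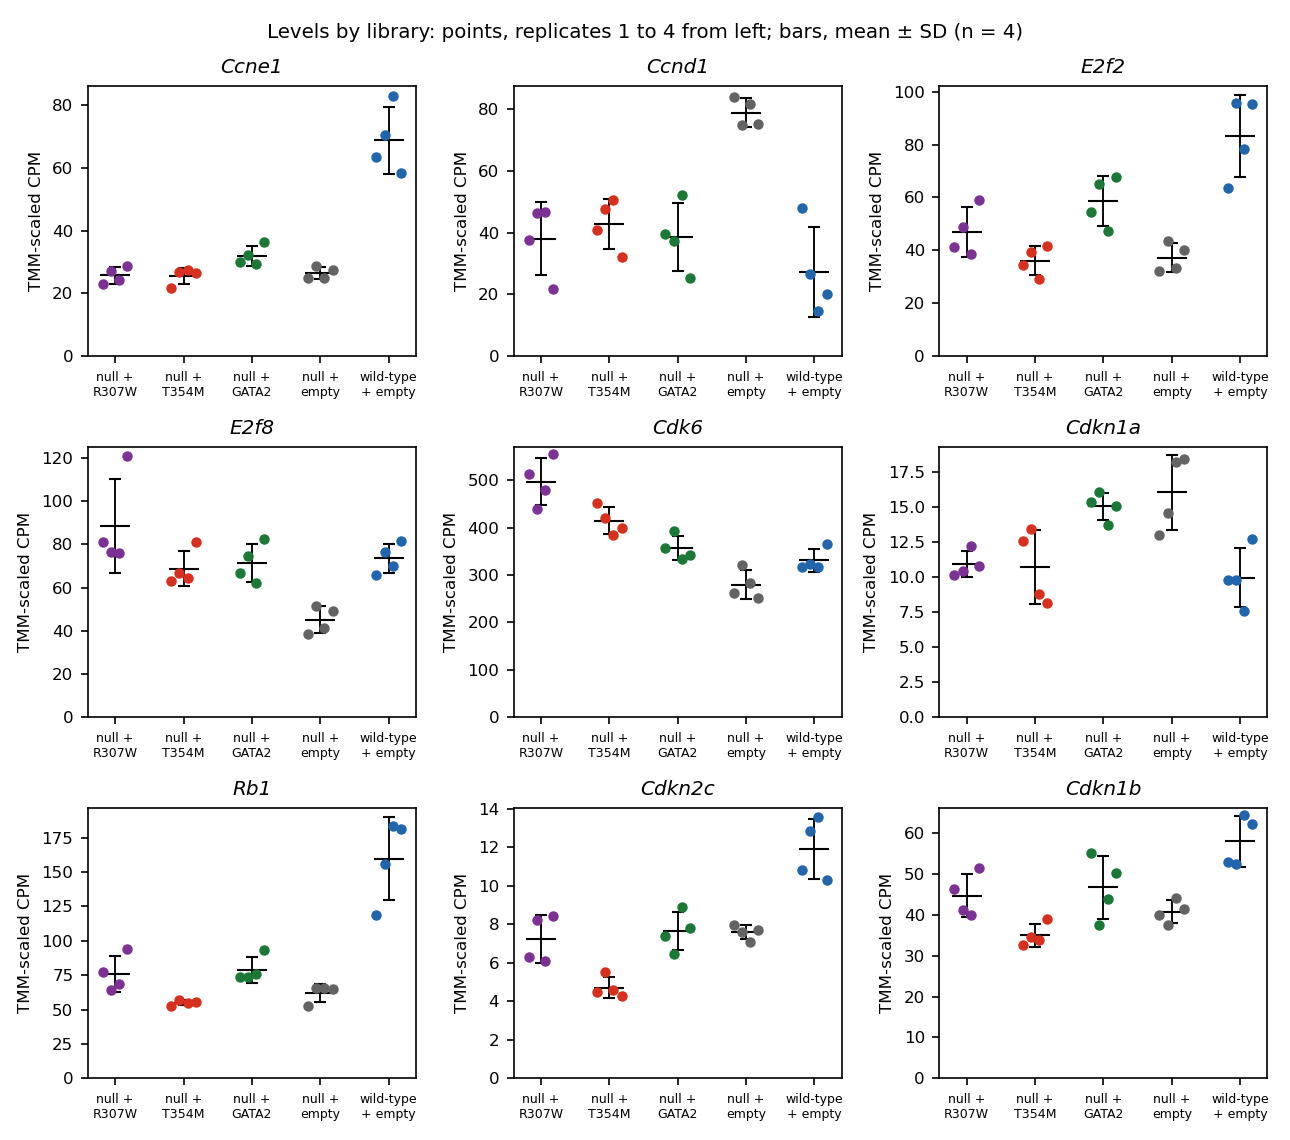
Points are TMM-scaled CPM of single libraries, replicates 1 to 4 from left, with bars for the mean and SD of 4, in the groups R307W, T354M, wild-type GATA2, empty vector and wild-type. Ccnd1 is lowest in wild-type cells and highest with the empty vector in enhancer-null cells, while Cdkn2c is lowest with T354M, at 4.28 to 5.52 CPM.

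The vectors were also set against each other, in comparisons that share libraries with those above. R307W differed from wild-type GATA2 in 1 of the 51 genes, with 1.73% of all genes called, 0.587% higher and 1.14% lower. Cdk6 was higher with R307W, at 497 ± 48.9 CPM, than with wild-type GATA2, at 357 ± 25.9 CPM, by 0.48 (SE 0.09, edgeR adjusted p = 0.00686), with all 4 libraries above. Without replicate 4 of every group that difference was 0.40 (edgeR adjusted p = 0.0706), and with only the 8 libraries of the comparison 0.46 (0.0574). With the replicate number as a block, Ccne1 (-0.32, edgeR adjusted p = 0.0152) and E2f2 (-0.34, 0.00939) were called lower with R307W as well, 3 genes in all. Cdkn1a was lower with R307W in all 4 libraries, yet the difference of -0.46 was not called (edgeR adjusted p = 0.272).

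T354M differed from wild-type GATA2 in 4 of the 51 genes, all lower, with 10.0% of all genes called, 3.86% higher and 6.14% lower, and 3 of the 4 were inhibitors. Cdkn2c had 4.71 ± 0.55 CPM with T354M and 7.64 ± 1.00 CPM with wild-type GATA2, a difference of -0.70 (SE 0.14, edgeR adjusted p = 0.0025). E2f2 had 34.4, 39.4, 29.1 and 41.5 CPM with T354M, against 54.6, 65.2, 47.4 and 67.9 CPM with wild-type GATA2, a difference of -0.70 (SE 0.16, edgeR adjusted p = 0.00787). Both calls held under every alternative run, and the groups did not overlap for either gene. Rb1 had 52.8, 56.9, 54.8 and 55.4 CPM with T354M, against 73.7, 73.3, 75.6 and 93.2 CPM with wild-type GATA2, a difference of -0.52 (SE 0.13, edgeR adjusted p = 0.0147), which without wild-type GATA2 replicate 4, the highest library, was -0.43 (edgeR adjusted p = 0.0756). The Rb1 call was also lost by limma on TPM, and the adjusted p reached 0.307 over all alternatives. Cdkn1b had 35.0 ± 2.77 CPM with T354M and 46.7 ± 7.65 CPM with wild-type GATA2, and its difference of -0.42 (SE 0.11, edgeR adjusted p = 0.0227) was lost without replicate 1 (adjusted p = 0.0865) or 4 (0.0862) of wild-type GATA2 and without replicate 1 (0.0738) or 3 (0.0529) of T354M. Limma on TPM and the fit with only the 8 libraries did not call Cdkn1b either, and the adjusted p reached 0.108 over all alternatives. Cdkn1a was at -0.49 (edgeR adjusted p = 0.0782), and at -0.52 (0.0428) with the block, under which 11 of the 51 genes were called, 10 lower and 1, E2f1, higher (0.41, edgeR adjusted p = 0.013).

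R307W differed from T354M in 1 of the 51 genes, with 3.49% of all genes called, 2.3% higher and 1.19% lower. Cdkn2c was higher with R307W, at 7.24 ± 1.25 CPM, than with T354M, at 4.71 ± 0.55 CPM, by 0.62 (SE 0.14, edgeR adjusted p = 0.0141). Without R307W replicate 4 the difference was 0.54 (edgeR adjusted p = 0.0768), and without T354M replicate 4 it was 0.59 (0.0524). The Cdkn2c call was also lost by limma on TPM and with only the 8 libraries of the comparison. Its adjusted p reached 0.199 over all alternatives. With the block, Cdkn1b (0.36, edgeR adjusted p = 0.027), Rb1 (0.47, 0.00681), E2f2 (0.39, 0.00234) and E2f8 (0.36, 0.0198) were also higher and E2f1 (-0.36, 0.0492) lower with R307W, 6 genes in all.

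Marker genes moved with the T354M result. The 15 erythroid markers summed to 603 to 715 CPM with T354M, against 838.5 to 1403 CPM with wild-type GATA2, and 9 of the 15 were lower. The 10 neutrophil markers summed to 7446 to 9085 CPM with T354M, against 2862 to 4239 CPM with wild-type GATA2, and 8 of the 10 were higher. Mast cell and basophil markers, a list that includes Gata2, were lower for 7 of 11. R307W set against wild-type GATA2 gave 6 of these 11 lower, 2 of 10 neutrophil markers higher and 0 of 15 erythroid markers called. None of these markers was at 0 in a whole group, and their part in the cell cycle differences was not tested. Since the records of the variant libraries give less of the protocol, any difference in how they were handled cannot be told apart from the variant here.

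**Figure D5:**
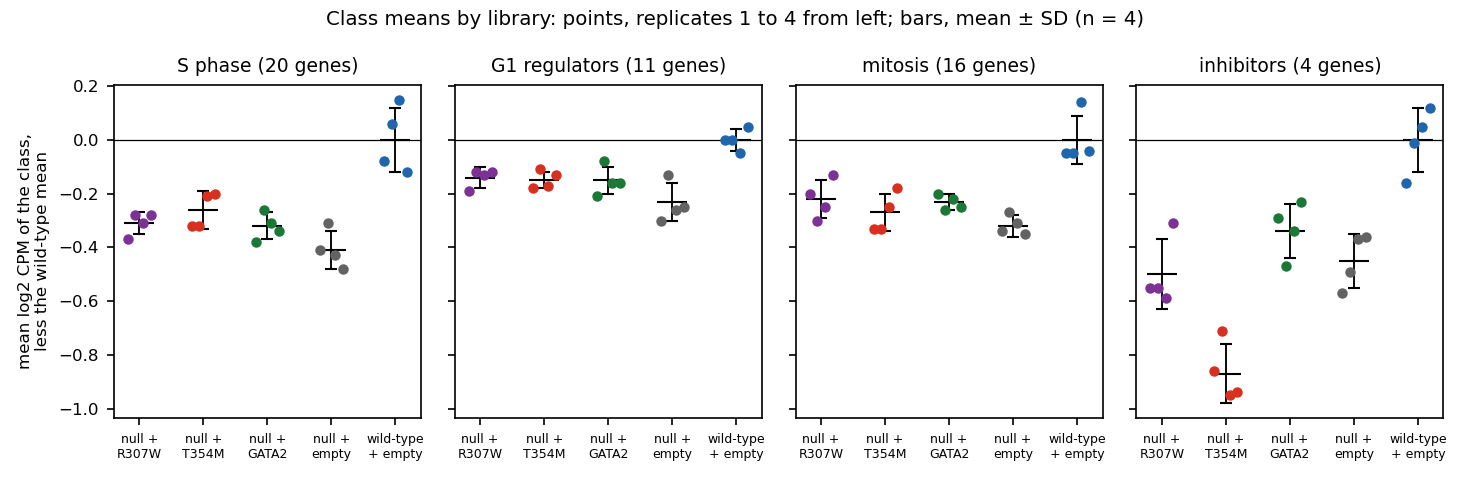
Points are the mean log2 CPM of the genes of a class in a library, less the mean of the wild-type libraries, with bars for the mean and SD of 4, in the groups R307W, T354M, wild-type GATA2, empty vector and wild-type. The inhibitor class is lowest with T354M, at -0.95 to -0.71, while the 3 other classes stay below 0 in all vector groups.

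Set against wild-type cells, each vector group had more of the 51 genes lower than higher. Enhancer-null cells with R307W had 24 of the 51 genes lower and 2 higher, with T354M 26 lower and 3 higher, and with wild-type GATA2 27 lower and 2 higher. Over all genes, 33.5% were called with R307W (16.5% higher and 17.0% lower), 37.0% with T354M (18.6% higher and 18.4% lower) and 30.7% with wild-type GATA2 (2335 genes higher and 2534 lower), in comparisons that share the wild-type libraries. The class mean of S phase genes lay below that of wild-type cells by a log2 difference of -0.31 ± 0.04 with R307W, -0.26 ± 0.07 with T354M, -0.32 ± 0.05 with wild-type GATA2 and -0.41 ± 0.07 with the control vector. For mitosis genes these values were -0.22 ± 0.07, -0.27 ± 0.07, -0.23 ± 0.03 and -0.32 ± 0.04. For G1 genes they were -0.14 ± 0.04, -0.15 ± 0.03, -0.15 ± 0.05 and -0.23 ± 0.07. The median log2 difference of the 11 G1 genes from wild-type cells was near 0, however, at 0.01 with R307W, 0.03 with T354M and -0.04 with wild-type GATA2. For the inhibitors the class means were -0.50 ± 0.13, -0.87 ± 0.11, -0.34 ± 0.10 and -0.45 ± 0.10. Markers differed from wild-type cells too, with counts for R307W, T354M and wild-type GATA2 in turn. Erythroid markers were lower for 14, 15 and 14 of 15, and megakaryocyte markers for 7, 6 and 6 of 7. Monocyte and macrophage markers were higher for 6, 6 and 6 of 10. Stem and progenitor markers were higher for 7, 8 and 7 of 9, with 1 lower with R307W. The part of these cell types was not tested.

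Ccne1 stayed low with every vector. It had 25.8 ± 2.64 CPM with R307W, 25.7 ± 2.57 with T354M, 31.9 ± 3.24 with wild-type GATA2 and 26.4 ± 1.99 with the control vector, against 68.7 ± 10.7 CPM in wild-type cells. The log2 differences from wild-type cells were -1.41, -1.42 and -1.11 with the 3 GATA2 vectors (edgeR adjusted p = 3.47e-08, 1.64e-08 and 7.05e-07). Rb1 was at -1.07 (edgeR adjusted p = 5.14e-06), -1.54 (5.76e-08) and -1.02 (1.12e-05) in the same order. Cdc6 was at -0.80, -0.75 and -0.80, Mki67 at -0.62, -0.80 and -0.67 and Ccnd3 at -0.63, -0.79 and -0.64. Cdkn2c was at -0.71, -1.33 and -0.64, and E2f2 at -0.82, -1.21 and -0.50. Cdt1 was at -0.68 with wild-type GATA2 (edgeR adjusted p = 0.00223). Ccnd2 stayed higher than in wild-type cells with all 3 vectors, by 0.60, 0.82 and 0.59, while Ccnd1, at 0.48, 0.65 and 0.50, was not called.

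Of the genes lower on enhancer loss, Gmnn, Pola1, Cdk6, Cdk2, E2f8, Top2a and Foxm1 were not called lower than in wild-type cells with any of the vectors, a count taken after their values were seen. A missed call does not show equal levels, and of these 7 genes Cdk6, Cdk2 and E2f8 were also called higher with all 3 vectors than with the control vector.

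Other genes of the same pathway were taken from lists that do not overlap with the 51, and are read against 20.1% of all genes higher and 23.2% lower on enhancer loss. Of 43 other replication genes 26 were lower and 1 higher, with Orc5, a further ORC subunit, at -1.52 (20.3 ± 1.36 CPM in enhancer-null cells and 58.4 ± 6.92 CPM in wild-type cells, edgeR adjusted p = 4.52e-09) and Wdhd1 at -0.82. Of 51 other mitosis genes 35 were lower and 2 higher, with Cdc25b, a phosphatase that activates CDKs, at -1.65 and the kinetochore gene Cenph at -0.77. Of 30 tested other regulators 13 were lower and 2 higher, with Tfdp2, a dimer partner of E2F factors, at -2.44 (28.5 ± 2.34 CPM in enhancer-null cells and 154 ± 31.8 CPM in wild-type cells, edgeR adjusted p = 1.41e-09) and the repressive factor E2f4 at -0.75. Of 11 genes of nucleotide supply 3 were lower and 3 higher, the thymidine kinase Tk1 at -0.84 and the folate enzyme Shmt1 at 0.99.

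With the vectors R307W raised 2 of 43 other replication genes, 9 of 51 other mitosis genes and 3 of 30 other regulators, where 10.0% of all genes were higher. T354M raised 3, 6 and 6 of the same lists, where 9.26% were higher, and wild-type GATA2 raised 2, 6 and 3, where 11.0% were higher. Orc5 rose by 0.41 with R307W (edgeR adjusted p = 0.0128) and by 0.57 with wild-type GATA2 (edgeR adjusted p = 0.00105), and was at 0.17 with T354M, not called. Tfdp2 rose by 0.71 with R307W, 0.55 with T354M (edgeR adjusted p = 0.017) and 0.71 with wild-type GATA2, and was lower than in wild-type cells with each, by log2 differences of -1.72, -1.89 and -1.73. Rbl2, a pocket protein related to Rb1, rose by 1.01 with wild-type GATA2 (edgeR adjusted p = 0.00027), to 113 ± 25.3 CPM, against 56.0 ± 1.90 CPM with the control vector. It also rose with R307W, by 0.69 (edgeR adjusted p = 0.00679), and was at 0.45 with T354M, not called (edgeR adjusted p = 0.0636). Wee1, the kinase that restrains Cdk1, rose by 0.41 with R307W and 0.50 with T354M, and was at 0.12 with wild-type GATA2, not called. Kif23, a kinesin of cytokinesis, was lower with all 3 vectors, by log2 differences of -0.32 with R307W (edgeR adjusted p = 0.0045), -0.49 with T354M (0.000111) and -0.23 with wild-type GATA2 (0.0282). T354M set against wild-type GATA2 left Cdc25b at 11.0 ± 1.49 CPM and 23.0 ± 5.67 CPM, a difference of -1.07 (edgeR adjusted p = 0.000509), and the INK4 inhibitor Cdkn2d at -0.52 (edgeR adjusted p = 0.00692).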

How the data were processed

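RNA-seq tables of 20 libraries were used, 5 groups of 4 by the sample labels. The submitters' processing notes name STAR 2.5.2b, RSEM 1.3.0 and the mm10 build, while whether counting used strand is not given in the sources used here. The deposited files hold for each gene the expected count of RSEM, fractional where reads fit several genes, and the TPM, which the authors' RSEM run scaled by gene length and library total. GENCODE M21 (GRCm38) gave a symbol to 53274 of 53379 identifiers, and those without held at most 0.0148% of a library.

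Expected counts were rounded, filtered with filterByExpr (15835 genes left), TMM-scaled and tested in edgeR 4.0.16 (R 4.3.3) by its quasi-likelihood F test, in 1 fit of 5 group means (15 residual degrees of freedom, common dispersion 0.0468), tested on simulated data first. Benjamini-Hochberg adjustment ran over every tested gene, within each of the 10 comparisons. The SE is the log2 difference over the square root of F. No pair of replicates was a duplicate (chi-square per degree of freedom 16.5 to 102).

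Same-numbered libraries were taken as paired between 2 groups where their deviations from the group means correlated over 0.1 in every pair, which comes from the data and not from the labels. This held for wild-type GATA2 with the control vector (0.124 to 0.3), R307W with wild-type GATA2 (0.219 to 0.623), T354M with wild-type GATA2 (0.159 to 0.551) and R307W with T354M (0.204 to 0.667). Some libraries of unlike number correlated as well, such as R307W replicate 3 with T354M replicate 2 (0.338). The main fit of every comparison left the pairing out, and only the replicate block among the alternatives used it.

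The members, classes and lists were chosen with earlier results of these data known. Named were the inhibitors and D-type cyclins, in the first 4 comparisons the 3 called genes of each class with the largest change, in the others the 6 largest, and in each other list the 2 with the lowest adjusted p. Other genes given with a log2 difference or a block value were named after their values were seen. Alternatives were DESeq2 1.42.0 (size factors, and its Wald test), limma 3.58.1 on log2(TPM + 1), no filter, mitochondrial genes left out, only the 8 libraries of a comparison, a replicate block, and each library, or replicate 4 of every group, left out.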

Additional observations from a re-analysis of the deposited data

Results flagged for a closer look

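In each of the 51 genes and 5 groups, the highest or lowest of 4 libraries was checked for standing far from the other 3 (a gap to the next library above Dixon's critical share of the range). Of 255 such groups 15 passed, where chance gives about 1 in 20, or 12.8, and 8 of the 15 were replicate 4 libraries. Among S phase genes the libraries were T354M replicate 1 for Mcm10, lowest at 74.5 CPM, and for Rrm2, lowest at 134 CPM, R307W replicate 4 for Tyms, highest at 101 CPM, wild-type GATA2 replicate 4 for Mcm6, lowest at 463 CPM, and replicate 2 for Cdc6, highest at 80.2 CPM, control-vector enhancer-null replicate 2 for Mcm4, highest at 196 CPM, and wild-type replicate 2 for Mcm2, lowest at 168 CPM. Among G1 genes they were R307W replicate 4 for E2f8, highest at 121 CPM, T354M replicate 1 for Ccne1, lowest at 21.8 CPM, and wild-type replicate 4 for Cdk6, highest at 366 CPM. Among mitosis genes control-vector enhancer-null replicate 4 was highest for Plk1 at 44.7 CPM and lowest for Top2a at 911 CPM and for Kif11 at 245 CPM. Rb1 was highest in wild-type GATA2 replicate 4 at 93.2 CPM, and lowest in control-vector enhancer-null replicate 1 at 52.4 CPM.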

How the results depend on the processing

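No named value changed sign while called. Of 76 named values 61 were called, and over all alternatives 2024 kept their side of the threshold, 137 lost a call and 10 gained one. The 51 genes gave 39 calls on enhancer loss, and 29 to 40 under the alternatives. With GATA2 vectors the counts were small and moved more. Against the control vector, wild-type GATA2 (7 genes called) gave 4 by limma on TPM, 16 with only the 8 libraries of the comparison, 14 with the replicate block over the 16 enhancer-null libraries and 4 without replicate 4 of every group. R307W (9) gave 5 by limma, 14 with that block, whose pairing the labels and the data do not show for this comparison, and 2 without replicate 4 of every group. T354M (12) gave 6 by limma, 7 with no filter and 3 without replicate 4 of every group. R307W against wild-type GATA2 (1) gave 0 with only its 8 libraries, 3 and 2 with the block over 16 and 20 libraries, and 0 without replicate 4 of every group. T354M against wild-type GATA2 (4) gave 2 by limma, 11 with the block over 16 and 2 without replicate 4 of every group. R307W against T354M (1) gave 2 by the DESeq2 Wald test, 0 by limma, 0 with only its 8 libraries, 6 and 5 with the block over 16 and 20 libraries, and 0 without replicate 4 of every group. Against wild-type cells limma gave 15 for R307W (26), 18 for T354M (29) and 17 for wild-type GATA2 (29). Leaving out each library in turn gave 33 to 39 genes for enhancer loss, 2 to 9 for R307W, 3 to 12 for T354M and 4 to 10 for wild-type GATA2 against the control vector, 1 for R307W and 2 to 6 for T354M against wild-type GATA2, 0 to 2 for R307W against T354M, and 20 to 27, 26 to 31 and 19 to 29 for R307W, T354M and wild-type GATA2 against wild-type cells. The cause was not tested, beyond the fewer libraries of some alternatives. The block changed no other count by over 1.5 times, and the numbers were not taken to pair the libraries where the correlations of deviations ran lower, from 0.019 to 0.311 for R307W and 0.062 to 0.313 for T354M with the control vector, and from -0.105 to 0.107, 0.015 to 0.183, -0.077 to 0.151 and -0.011 to 0.232 for R307W, T354M, wild-type GATA2 and the control vector in enhancer-null cells with wild-type cells. Over all genes, limma on TPM turned the split on enhancer loss to 3494 higher and 2472 lower, against 3181 and 3678 in edgeR. Expected counts of 22330475 to 33245876 per library left all 51 genes above the filter, and the 4 libraries per group limit the precision.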

Other observations

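A list of 17 p53 target genes, which overlaps with none of the 51 and was set beside Cdkn1a because p21 is a classic p53 target, gave 3 genes higher and 3 lower on enhancer loss, where 43.3% of all genes were called. Perp, a cell adhesion gene, was lower by a log2 difference of -2.14 (edgeR adjusted p = 2.54e-07), at 7.0 ± 1.74 CPM in enhancer-null cells and 30.8 ± 6.84 CPM in wild-type cells, while Pmaip1, which encodes the pro-apoptotic protein Noxa, was higher by 1.47 (edgeR adjusted p = 0.000164), at 55.5 ± 10.1 CPM and 20.0 ± 8.20 CPM. With the vectors 1 gene of the list was higher in each case, and 5 with R307W, 5 with T354M and 1 with wild-type GATA2 were lower, where 7.48, 8.11 and 8.23% of all genes were lower. Perp had 113 ± 14.8 CPM with R307W, 92.4 ± 24.9 with T354M and 76.3 ± 10.4 with wild-type GATA2, against 7.0 ± 1.74 CPM with the control vector, log2 differences of 4.01, 3.72 and 3.45 (edgeR adjusted p = 3.41e-09, 2.5e-09 and 1.74e-08). Each vector put Perp above its level in wild-type cells, by 1.88, 1.59 and 1.31. Btg2, an antiproliferative gene, had 25.2 ± 3.47 CPM with T354M and 41.2 ± 8.98 CPM with wild-type GATA2, a difference of -0.71 (edgeR adjusted p = 0.0072), and was also lower with R307W than with the control vector (-0.56, edgeR adjusted p = 0.0238).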
